A study of Mus musculus with 6 samples.

Results

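The flavin-containing monooxygenase genes Fmo1, Fmo2, Fmo4 and Fmo5 were followed in mouse liver, chosen by gene symbol from the 55487 genes of the deposited tables. All 4 were found, and all 4 passed the filter on low counts. The study compared the livers of male C57/Bl6J mice on a high-fat diet (HFD) in 2 groups of 3 libraries. The mutant group carried, per the genotype labels, an RXRa allele marked f/f together with Alb cre+/-, and the design text names an Rxra S65A mutant. The control group carried, per the genotype labels, Alb cre +/- alone. By these labels the Cre transgene, driven by the albumin promoter and active in hepatocytes, was shared by both groups. The titles instead call the controls WT and the mutants Cre, and the labels do not settle this difference. The labels give no ages and leave unsaid whether every library is its own animal. A p-value here therefore refers to variation among libraries, which may be partly technical. RXRα, the product of Rxra, is the common dimer partner of nuclear receptors that govern lipid, bile acid and xenobiotic metabolism.

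Flavin-containing monooxygenases (FMOs) are membrane enzymes of the endoplasmic reticulum that hold FAD, take electrons from NADPH without a separate reductase, and add 1 oxygen atom to nitrogen, sulfur or other soft nucleophilic atoms of drugs, dietary amines and endogenous compounds. They differ in this from cytochromes P450, which receive their electrons through NADPH-cytochrome P450 reductase. Fmo1 is a broad drug-oxidizing form of mouse liver and kidney that is known to be more abundant in female than in male mouse liver and can also oxidize hypotaurine to taurine. Fmo2 is best known from lung. Fmo4 is a form of low abundance in most tissues. Fmo5 is abundant in liver, acts on carbonyl compounds as a Baeyer-Villiger monooxygenase and oxidizes few of the classical substrates of the family.

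In mm10 coordinates, the build of the deposited values, Fmo4 (ENSMUSG00000026692.12) spans 162793188 to 162813972 of chromosome 1, Fmo1 (ENSMUSG00000040181.14) 162829561 to 162866610 and Fmo2 (ENSMUSG00000040170.13) 162874317 to 162898726, all on the minus strand. They lie next to each other in the GENCODE release 21 annotation. Fmo5 (ENSMUSG00000028088.14) lies apart, on the plus strand of chromosome 3 at 97628804 to 97655282. No annotated gene overlaps any of the 4. Of all 31-base words in their transcripts, 7.95% in Fmo1, 0.0355% in Fmo2, 0% in Fmo4 and 0.473% in Fmo5 also occur in transcripts of other genes, so most of each transcript sets it apart from its relatives.

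RXRα dimers are known to bind pairs of the hexamer AGGTCA, and the promoter windows of the members in the RefSeq table (GRCm38.p6, 250 bases before to 50 after each start site) were therefore searched for it on both strands. Windows were found for 3 of the 4 members, with 2 start sites for Fmo2. In the windows below, written 5′ to 3′ along the gene, capitals mark matches to AGGTCA, TTCNNNGAA or TATAAA on either strand. The Fmo2 window, on the minus strand at chr1:162898444-162898743, holds AGGTCA at position -9 from the start site and TTCNNNGAA at position 13. The Fmo4 window, on the minus strand at chr1:162812500-162812799, holds the reverse complement TGACCT at position -75. The Fmo5 window, on the plus strand at chr3:97628769-97629068, holds no AGGTCA and has TATAAA in reverse at position -195. The other Fmo2 window, at chr1:162898709-162899008, holds none of these letters and is not printed.
Fmo2: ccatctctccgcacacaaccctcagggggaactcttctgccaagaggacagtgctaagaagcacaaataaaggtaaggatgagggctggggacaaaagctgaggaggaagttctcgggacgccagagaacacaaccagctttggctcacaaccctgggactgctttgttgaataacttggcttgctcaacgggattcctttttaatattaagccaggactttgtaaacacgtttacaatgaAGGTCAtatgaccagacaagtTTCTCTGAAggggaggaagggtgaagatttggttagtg
Fmo4: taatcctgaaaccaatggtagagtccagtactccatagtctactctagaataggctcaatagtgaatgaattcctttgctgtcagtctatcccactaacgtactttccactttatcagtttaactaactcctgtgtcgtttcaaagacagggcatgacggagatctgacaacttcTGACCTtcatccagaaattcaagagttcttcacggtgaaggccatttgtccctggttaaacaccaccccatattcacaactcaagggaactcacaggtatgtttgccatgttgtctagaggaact
Fmo5: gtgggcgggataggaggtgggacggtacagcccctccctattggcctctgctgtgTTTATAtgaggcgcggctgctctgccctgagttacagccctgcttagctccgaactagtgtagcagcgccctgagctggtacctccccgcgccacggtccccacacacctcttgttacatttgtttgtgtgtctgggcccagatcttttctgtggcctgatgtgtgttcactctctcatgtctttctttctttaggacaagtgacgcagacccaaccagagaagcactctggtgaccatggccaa
Of the 32851 promoter windows in the table, 16.3% hold AGGTCA, 8.30% hold TTCNNNGAA and 13.6% hold TATAAA. None of the printed windows holds the hexamer as a direct repeat with 1 base or with 4 bases between the copies, which occur in 0.0396% and 0.0152% of all windows. A match here is a description of letters and no evidence of binding.

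The libraries held 35847386 to 43162557 estimated counts. Genes at or above 1 TPM numbered 10567 to 10863 in the mutants and 11948 to 11998 in the controls. TPM is abundance per transcript length within a library, and levels of different genes are compared on it here. CPM are counts relative to a TMM-scaled library size, which sets the typical gene equal between libraries, and changes are read on that scale, in the edgeR quasi-likelihood test with Benjamini-Hochberg adjustment over 14286 genes. Mup genes, which encode abundant secreted urinary proteins, took 12.8% to 16.9% of the counts in the mutants and 1.85% to 3.09% in the controls. The median log2 fold change of all tested genes was 0.00 after TMM scaling, -0.40 with library totals in its place, -0.21 with library totals that leave out Mup genes, and -0.48 in limma on log2(TPM + 1). Rxra itself stood at 174, 119 and 148 TPM in mutant replicates 1 to 3, against 181, 170.05 and 152 TPM in control replicates 1 to 3, values that do not show which form of the protein the transcripts encode. In CPM Rxra was higher in all mutant libraries, and 34.9% of tested genes did not overlap in one direction or the other. Its log2 fold change was 0.40 ± 0.13 (SE), which edgeR did not call (adjusted p = 0.0724). DESeq2 called it (adjusted p = 0.0295), as did edgeR without a filter (adjusted p = 0.0356) and without mutant replicate 2 (adjusted p = 0.0388). The log2 fold change was 0.007 with library totals, 0.19 with library totals that leave out Mup genes and -0.20 in limma on log2(TPM + 1), without a call.

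The 4 genes fell into an abundant pair and a scarce pair. Fmo5 was the most abundant in every library, at 296, 255 and 230.1 TPM in mutant replicates 1 to 3, against 281, 313 and 351 TPM in control replicates 1 to 3. It ranked between position 354 and 473 among all genes by TPM. Fmo1 came next in every library, at 101, 96.3 and 104 TPM in the mutants, against 136, 181 and 167 TPM in the controls. Both scarce genes stayed below 12 TPM. Fmo4 had 6.31, 3.39 and 3.96 TPM in the mutants, against 7.31, 11.3 and 5.39 TPM in the controls. Fmo2 had 4.14, 3.26 and 2.72 TPM in the mutants, against 6.08, 4.55 and 9.42 TPM in the controls. Fmo4 was above Fmo2 in all 3 mutant libraries and in control replicates 1 and 2, and below it in control replicate 3, so their order lies within the spread of the controls. On this scale the groups did not overlap for Fmo1 and Fmo2, each lower in all mutant libraries, as was true of 64.5% of tested genes, and they overlapped for Fmo4 and Fmo5.

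**Figure D1:**
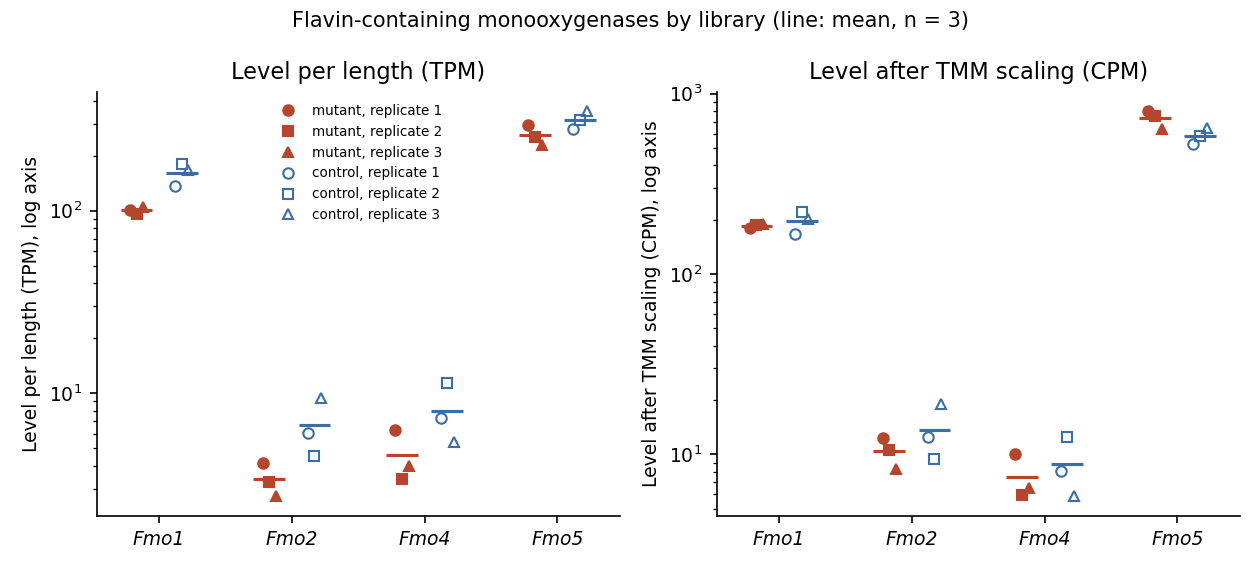
Level of each member in every library as TPM (left) and as CPM after TMM scaling (right), both on log axes, with mutant libraries filled and control libraries open, and the group mean as a line (n = 3). Fmo5 and Fmo1 lie far above Fmo4 and Fmo2 in all 6 libraries, and the groups of Fmo1 separate in TPM and overlap in CPM.

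After TMM scaling 0 of the 4 genes was called at an adjusted p under 0.05, where 13.5% of all tested genes were called (6.64% higher and 6.82% lower). At an unadjusted p under 0.05 there was 1 of 4, Fmo5, against 29.0% of all tested genes, and DESeq2 also called 0 of 4. In CPM the groups overlapped for all 4 members, while they did not overlap for 34.9% of tested genes.

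Fmo5 was the nearest to a call on this scale, with the higher mean in the mutants. It had 799, 751 and 635 CPM in mutant replicates 1 to 3, against 523, 584 and 642 CPM in control replicates 1 to 3. The lowest mutant library lay just under the highest control. Its log2 fold change was 0.32 ± 0.12 (SE), with a 95% interval of 0.05 to 0.59 before adjustment over genes, and the edgeR adjusted p was 0.114. Over 17 alternative settings the adjusted p ranged from 0.0645 to 0.654, and the sign turned negative with library totals (-0.075) and in limma on log2(TPM + 1) (-0.28). In both, Fmo5 stayed above the median of all tested genes, by 0.32 and 0.21. In limma on log2(TPM + 1) without a filter its difference from the median was -0.036.

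Fmo1 kept close to the typical gene. It had 180.2, 187 and 189 CPM in the mutants, against 167, 222 and 201 CPM in the controls. The mutant libraries lay within the range of the controls, and their coefficient of variation was 2.55% in the mutants and 14.2% in the controls. The log2 fold change was -0.08 ± 0.11 (SE), with a 95% interval of -0.35 to 0.18, and the edgeR adjusted p was 0.686. With library totals Fmo1 was called lower (log2 fold change -0.48, adjusted p = 0.0155), as were 31.6% of tested genes. It was also called lower in limma on log2(TPM + 1) (-0.67, adjusted p = 0.00290), where 63.6% of tested genes were. Relative to the median of all genes these values were -0.085 and -0.18, and in limma without a filter -0.43. Adjusted p ranged from 0.00290 to 0.961 over 17 alternatives, and without control replicate 2 the log2 fold change was 0.013.

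The scarce members varied more between libraries. Fmo2 had 12.4, 10.6 and 8.29 CPM in the mutants, against 12.5, 9.38 and 19.1 CPM in the controls, with control replicate 3 above the rest. Its log2 fold change was -0.39 ± 0.26 (SE), with a 95% interval of -0.99 to 0.22 (edgeR adjusted p = 0.376). Without control replicate 3 the log2 fold change was -0.07. In limma on log2(TPM + 1) Fmo2 was called lower (-0.78, adjusted p = 0.0248), and over 17 alternatives the adjusted p ranged from 0.0238 to 0.901. Fmo4 had 10.1, 5.92 and 6.48 CPM in the mutants, against 8.07, 12.5 and 5.85 CPM in the controls. Its log2 fold change of -0.23 ± 0.31 (SE), with a 95% interval of -0.94 to 0.48, was not called (edgeR adjusted p = 0.681, range 0.0604 to 0.898 over 17 alternatives) and was 0.11 without control replicate 2. The intervals leave room for a 2-fold difference in neither direction for Fmo1 and Fmo5, and reach close to it on the lower side for Fmo2 and Fmo4. Fmo2 was estimated at 257 to 849 counts in a library and Fmo4 at 191 to 558, where counting error alone is 6.23% and 7.23% at the lowest count, well under the spread between libraries.

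**Figure D2:**
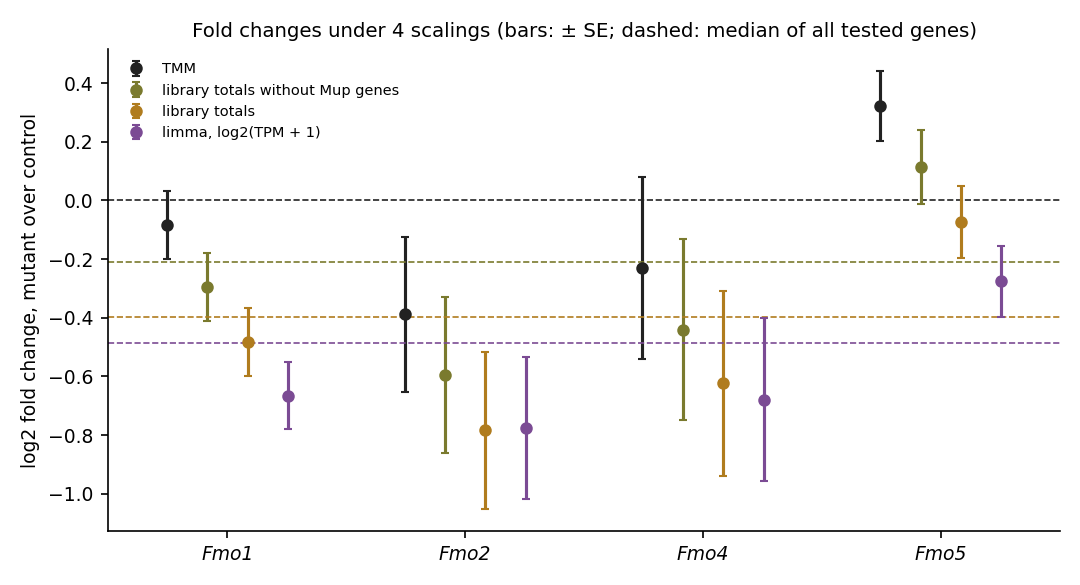
Log2 fold change of each member, mutant over control, under 4 scalings, with bars of 1 standard error; dashed lines give the median of all tested genes under the scaling of the same colour. Each member is lower under the other scalings than after TMM, Fmo5 with 0.32 after TMM and -0.28 on TPM, and Fmo5 lies above the median line of its scaling in each case shown.

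Ratios within a library do not depend on the scaling between libraries, and on them Fmo1 and Fmo2 lay lower against Fmo5 in every mutant library. Fmo1 stood at 34.3%, 37.8% and 45.4% of the TPM of Fmo5 in mutant replicates 1 to 3, against 48.5%, 57.8% and 47.7% in control replicates 1 to 3. The groups did not overlap, with the highest mutant library just below the lowest control. Of all 14285 other tested genes set against Fmo5 in this way, 31.1% were lower in all mutant libraries without overlap. The log2 ratio was -1.36 ± 0.20 in the mutants and -0.97 ± 0.15 in the controls (SD, n = 3 each), a difference of -0.39 with a two-sided exact permutation p of 0.1, the smallest that 3 against 3 libraries allow (adjusted p = 0.15 over 3 ratios). Fmo2 stood at 1.40%, 1.28% and 1.18% of Fmo5 in the mutants, against 2.17%, 1.45% and 2.69% in the controls, again without overlap (difference in log2 ratio -0.67, exact permutation p = 0.1, adjusted p = 0.15). Fmo4 stood at 2.13%, 1.33% and 1.72% of Fmo5 in the mutants, against 2.60%, 3.62% and 1.54% in the controls, with overlapping groups (difference -0.52, exact permutation p = 0.3). Since this test cannot pass 0.05 in the present design, these differences are given as values and were not called.

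**Figure D3:**
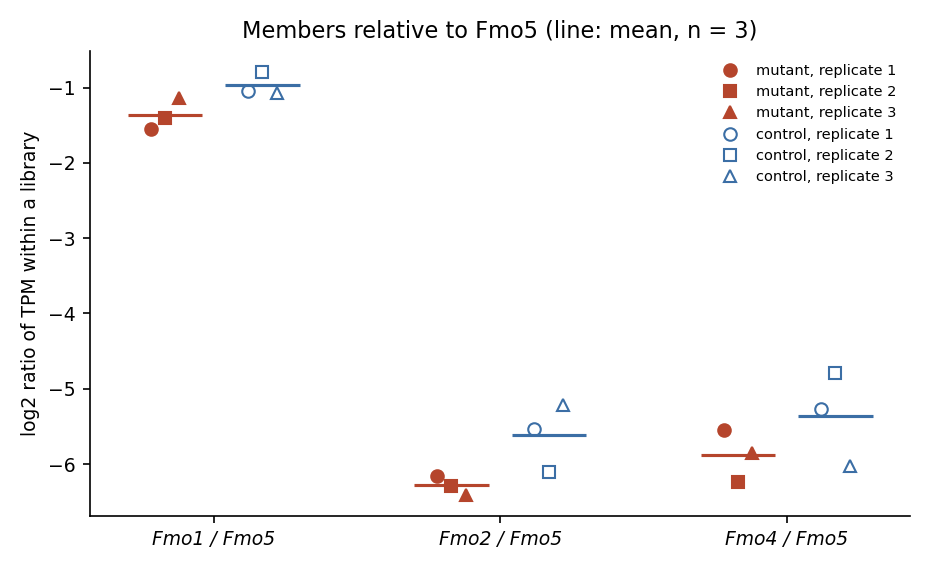
Log2 ratio of the TPM of Fmo1, Fmo2 and Fmo4 to that of Fmo5 within each library, with mutant libraries filled, control libraries open and the group mean as a line (n = 3). For Fmo1 and Fmo2 the 3 mutant libraries lie below the 3 controls, and for Fmo4 the groups overlap.

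Of the summed TPM of the 4 genes Fmo5 took 70.4 ± 2.65% in the mutants and 64.2 ± 2.41% in the controls, and Fmo1 took 27.5 ± 2.90% in the mutants and 32.8 ± 2.30% in the controls (SD, n = 3 each). Fmo2 and Fmo4 together supplied the rest. The sum itself was 408, 358 and 341 TPM in mutant replicates 1 to 3, against 430.1, 511 and 533 TPM in control replicates 1 to 3, lower in all mutant libraries (exact permutation p = 0.1). In CPM it was 1002, 954 and 839 in the mutants, against 710.2, 827 and 868 in the controls, higher on average with overlap (exact permutation p = 0.2). The direction of the total therefore differs between the scales.

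Fmo6 had 4.01 estimated counts in control replicate 1 and 0 in the other libraries, and Fmo9 had 0 in all.

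Genes next to the members on the chromosome were not called either. Prrc2c, which flanks Fmo4, had a log2 fold change of -0.03, and Prrx1, the nearest tested gene beyond Fmo2, one of -0.49. Beside Fmo5, Chd1l had 0.16 and Prkab2, which encodes a subunit of AMP-activated protein kinase, -0.58 (edgeR adjusted p from 0.261 to 0.945 for these 4).

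Among 7210 tested genes with a mean of at least 10 CPM and an established symbol, likeness to a member was measured as the root-mean-square difference of log2 CPM over the 6 libraries, each gene centred on its own mean. Nearest to Fmo5 were Ppfia1 (0.0252), Vars (0.0362), Trmt112 (0.0563), Vamp7 (0.0565) and Dhrs1 (0.0577), where Fmo5 itself spreads by 0.207 around its mean. Vars encodes the valine tRNA synthetase and Vamp7 a vesicle fusion protein. Nearest to Fmo1 were L3mbtl2 (0.0265), Abhd3 (0.0317), Srsf6 (0.0440), Ncald (0.0448) and Ino80c (0.0466), against a spread of 0.128 for Fmo1. The scarce members had less close neighbours. For Fmo2, with a spread of 0.382, they were Wdr91 (0.125), Smad2 (0.145), Spata2 (0.173), Ttc3 (0.179) and Dstyk (0.188). For Fmo4, with a spread of 0.408, they were Tcirg1 (0.149), Stat3 (0.178), Cln3 (0.187), Tbx3 (0.197) and Ccdc9 (0.200).

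Around the FMOs, genes listed as partners in electron transfer moved in both directions. Of 9 tested genes of this list 2 were called higher and 4 lower, with a median log2 fold change of -0.04. Por, the P450 reductase that FMOs do not need, had 866, 660 and 634 CPM in mutant replicates 1 to 3, against 269, 244 and 169 CPM in control replicates 1 to 3. It rose by a log2 fold change of 1.66 ± 0.19 (SE, edgeR adjusted p = 0.00164), a call that held with library totals, in limma on TPM and on leaving out each library. Cyb5r3, the NADH-cytochrome b5 reductase, fell to 284 ± 14.2 CPM in the mutants, against 447 ± 13.2 CPM in the controls (SD, n = 3 each, edgeR adjusted p = 0.00266). Hmox1, the heme oxygenase that draws electrons from Por, fell to 8.86 ± 2.17 CPM in the mutants, against 24.05 ± 1.22 CPM in the controls (SD, n = 3 each, edgeR adjusted p = 0.00265). With library totals 1 was higher and 5 lower, where 31.6% of all tested genes were lower. The genes called higher numbered 2 without mutant replicate 3 and 1 without any other library.

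Genes for the supply of FAD and NADPH, the cofactors of the family, were called in small numbers after TMM scaling. Of 4 tested genes of FAD supply 1 was called higher, Slc25a32, which carries folate and FAD into mitochondria, and 0 lower (median 0.13), and with library totals 0 were higher and 2 lower. The call remained without mutant replicate 2 and was lost when any other single library was left out. Of 12 tested identifiers of NADPH supply 2 were called higher and 3 lower (median 0.01). With library totals 0 were higher and 6 lower, and in limma on log2(TPM + 1) 0 were higher and 9 lower. Over all tested genes 31.6% and 63.6% were lower in these settings. Pgd, an NADPH-producing enzyme of the pentose phosphate pathway, fell to 20.3 ± 1.22 CPM in the mutants, against 37.2 ± 2.53 CPM in the controls (SD, n = 3 each, edgeR adjusted p = 0.00222). Over the whole list 0 to 2 were called higher and 1 to 2 lower when one library was left out, with Pgd called each time. The lower count was 1 without mutant replicate 1, control replicate 2 or control replicate 3, and the higher count was 0 without mutant replicate 1, control replicate 1 or control replicate 3 and 1 without mutant replicate 3 or control replicate 2.

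The list of trimethylamine and choline metabolism and the list from cysteine to taurine held more higher than lower calls after TMM scaling. Of 16 tested genes of trimethylamine, choline and methyl-group metabolism 4 were called higher and 0 lower (median 0.22). Gnmt, the glycine N-methyltransferase, rose to 1338 ± 175 CPM in the mutants, against 619 ± 41.5 CPM in the controls (SD, n = 3 each, edgeR adjusted p = 0.00103), and Sardh, the sarcosine dehydrogenase, to 1272 ± 173 CPM, against 717 ± 20.5 CPM (edgeR adjusted p = 0.00338). Without any 1 of the controls 2 of the 16 were called higher. With library totals 2 were higher and 7 lower, where 31.6% of all tested genes were lower. Of 8 tested genes from cysteine to taurine, the route in which Fmo1 can take the last step, 3 were called higher and 0 lower (median 0.35), and with library totals 2 were higher and 1 lower. The 3 were Got1, Cth and Cbs, which act on the supply of cysteine or its amino group. The call of Cbs remained without mutant replicate 2 and was lost when any other single library was left out. Cbs was also not called with library totals or in limma on log2(TPM + 1). Over the whole list 2 to 4 were called higher when one library was left out. Got1 rose to 338 ± 157 CPM in the mutants, against 64.4 ± 9.62 CPM in the controls (SD, n = 3 each, edgeR adjusted p = 0.00408), and Cth, the cystathionine lyase, to 469 ± 192 CPM, against 139 ± 4.63 CPM (edgeR adjusted p = 0.00646). The taurine-forming steps before Fmo1 were not called, with Cdo1 at 1614 ± 265 CPM in the mutants and 1226 ± 57.1 CPM in the controls (edgeR adjusted p = 0.0802) and Csad at 327 ± 141 CPM in the mutants and 284 ± 39.4 CPM in the controls (edgeR adjusted p = 0.710).

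**Figure D4:**
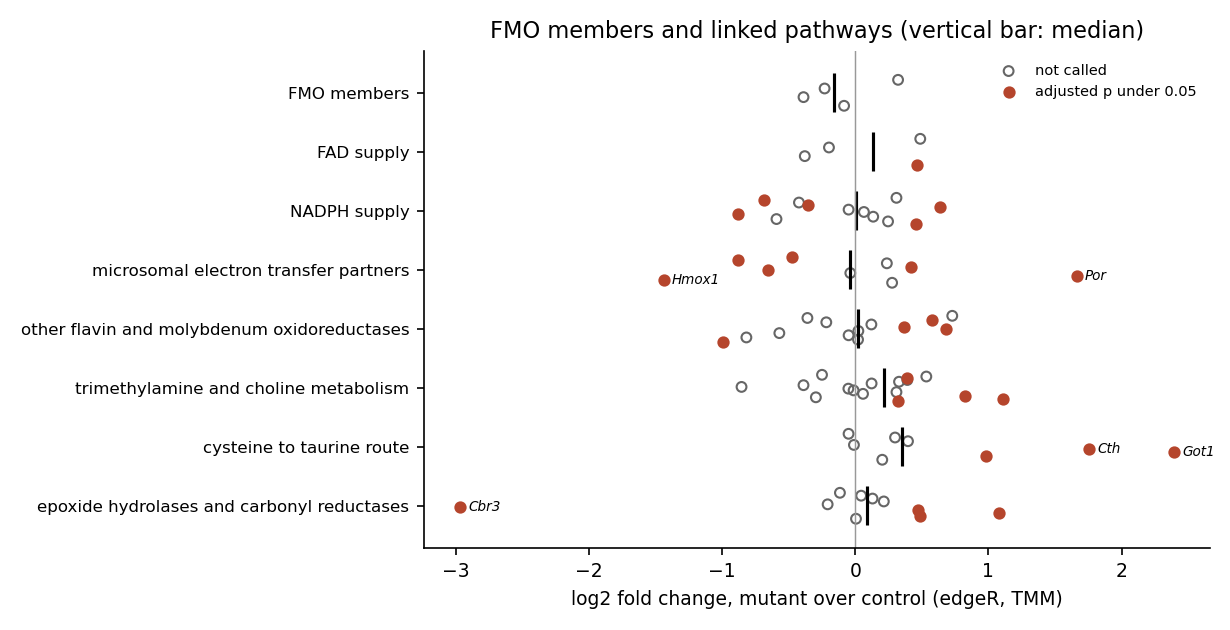
Log2 fold change, mutant over control after TMM scaling, of the 4 members and of each tested gene of the linked pathways, filled where the edgeR adjusted p is under 0.05, with the median of each row as a vertical bar. The members stay between -0.39 and 0.32, while Por reaches 1.66 and Got1 2.39.

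Genes with a known sex difference in mouse liver were set beside the family because Fmo1 is known to be higher in females. Of 17 tested genes higher in female than in male liver 5 fell and 3 rose (median 0.12). Among those that fell were Cyp2a4 (log2 fold change -7.38), Cyp2b9 (-7.09) and Abcb1a (-2.05). The 3 that rose were Trim24 (log2 fold change 1.10), Cyp4a14 (1.06) and Cyp17a1 (0.87). Of 29 tested genes higher in male liver 25 rose and 0 fell (median 2.18), including Gstp1 at 2.04, Cyp7b1 at 2.66 and C8b at 2.18. With library totals 2 of the genes higher in females rose and 8 fell, where 31.6% of all tested genes fell. Fmo1, at -0.08, did not pass in the same test after TMM scaling.

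The livers expressed the defining markers of hepatocytes at high level, and other cell types differed in their markers between the groups. The 10 hepatocyte markers summed to 94615 to 109090 CPM in the mutants and to 86560 to 98065 CPM in the controls, with 5 called higher, 0 lower and none at 0, and with library totals 3 were higher and 2 lower. The 16 markers of stellate cells and fibroblasts summed to 208 to 270.3 CPM in the mutants and to 529 to 544 CPM in the controls, with 12 lower and 0 higher. The 15 endothelial markers summed to 184 to 271 CPM in the mutants and to 227 to 411 CPM in the controls, with 3 lower, a count that was 0 without mutant replicate 1, mutant replicate 2, control replicate 1 or control replicate 3. The 16 macrophage markers summed to 194 to 354 CPM in the mutants and to 404 to 556 CPM in the controls, with 6 lower, which was 0 without control replicate 1, 1 without mutant replicate 1 or control replicate 2 and 3 without mutant replicate 2. The 10 cholangiocyte markers summed to 48.9 to 64.8 CPM in the mutants and to 80.6 to 109.9 CPM in the controls, with 1 of 8 tested higher, which was 0 without any library other than mutant replicate 2 and also with library totals, and 1 lower. The 8 adipocyte markers summed to 13.8 to 35.8 CPM in the mutants and to 96.4 to 105 CPM in the controls, with 3 of 3 tested lower, which was 1 without control replicate 1 or control replicate 3, and Lep at 0 in all libraries. Cidec made up most of the sum, with means of 25.1 CPM in the mutants and 79.1 CPM in the controls. The other tested genes were Cfd and Fabp4, and the rest of the list did not pass the filter on low counts. Whether adipocytes were the source of these values was not tested. The part of these cells in the values of Fmo2 or any other member was not tested, and in bulk tissue fewer cells of a type and less RNA per cell cannot be told apart. Among hepatocyte zones after TMM scaling, 11 of 14 periportal markers were called higher and 1 lower (median log2 fold change 1.52). Of 11 pericentral markers 4 were called higher and 0 lower, with a median log2 fold change of -0.15. The pericentral higher count was 2 without mutant replicate 1, mutant replicate 2, control replicate 2 or control replicate 3. With library totals 1 pericentral marker was higher and 4 were lower, where 31.6% of all tested genes were lower.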

How the data were processed

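Total RNA of mouse liver, in 6 libraries, was poly(A)-enriched and sequenced as paired reads of 150 bases, per the labels' protocols. The submitters' processing notes name cutadapt, STAR and the build mm10; no source used here gives tool versions, the counting program, the annotation or strand settings. The deposited files are the authors' table of estimated counts and their table of TPM, with a column per library. No nonzero deposited estimated count was whole (tolerance 1e-06), and over 10983 genes counts and TPM differed by a fixed factor per gene and library (largest relative deviation 5.72e-10), so the estimated counts follow from the same estimates as the TPM.

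Estimated counts were rounded and tested in R 4.3.3 with edgeR 4.0.16: filterByExpr, TMM, the quasi-likelihood F-test on group, and Benjamini-Hochberg adjustment over 14286 genes. Errors of log2 fold changes are standard errors from the F statistic. Ratios and sums of the members were compared by two-sided exact permutation tests over libraries. Alternatives were RLE, library totals with and without Mup genes, other filters, robust fitting, DESeq2 1.42.0, limma 3.58.1 on log2(TPM + 1) and log2(TPM + 0.1), the replicate number as a block, and leaving out each library. The procedure was tested on simulated data, where it recovered 59.6% of the 2-fold and 86.2% of the 4-fold changes. Of its 149 calls there 6 were false. No 2 libraries were near-duplicates (chi-square of at least 47.5 per gene). Of the gene identifiers 99.4% occur in GENCODE mouse release 21, which gave the coordinates.

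Named genes were the members, other Fmo genes, the 5 genes most like each member, chromosomal neighbours, Rxra, and up to 3 called genes of each list with the smallest p. Csad, Cdo1, Lep, Trim24, Cyp4a14 and Cyp17a1 were named outside this rule after their values were seen. Some items are not reported here. The members and the lists of pathway and cell type genes were chosen with earlier results of these data known.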

Additional observations from a re-analysis of the deposited data

How the results depend on the processing

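Over the 17 alternatives Fmo4 and Fmo5 were called in none. Fmo1 was called lower with library totals (-0.48), in limma on log2(TPM + 1) with and without a filter (-0.67 in both) and on log2(TPM + 0.1) (-0.67). Fmo2 was called lower in limma on log2(TPM + 1) (-0.78) and log2(TPM + 0.1) (-0.92), both filtered. The log2 fold change of Fmo5 turned to -0.075 with library totals and to -0.28 in all 3 limma fits, and the difference in summed CPM, 130 after TMM scaling, turned to -108 with library totals. Leaving out one library gave log2 fold changes of -0.19 to 0.013 for Fmo1, where the positive value came without control replicate 2, -0.60 to -0.07 for Fmo2, -0.51 to 0.11 for Fmo4, positive without control replicate 2, and 0.25 to 0.41 for Fmo5. The differences in log2 ratio to Fmo5 were then -0.51 to -0.30 for Fmo1, -0.91 to -0.47 for Fmo2 and -0.85 to -0.24 for Fmo4, and those of the sums -153 to -101 TPM and 84.1 to 176 CPM. Of all genes, 1923 were called (949 higher, 974 lower). The count was 4801 with library totals (293 higher, 4508 lower), 7579 (217 and 7362) and 7526 (211 and 7315) in limma on log2(TPM + 1) and log2(TPM + 0.1), and 6581 (190 and 6391) without the TPM filter. Library totals without Mup genes gave 405 higher and 1968 lower. Leaving out one library gave 882 to 1514 calls (426 to 758 higher, 430 to 756 lower), with 882 without mutant replicate 1 and 886, 956 and 1018 without control replicates 1, 2 and 3. The cause of these shifts was not tested. Same-numbered libraries were not paired by the labels, and their deviations from the group means correlated at 0.0167, -0.00322 and 0.0634. With the replicate block 1558 genes were called, no member changed its call, and the exact permutation p of the ratio of Fmo1 to Fmo5 was 0.25, the smallest that 3 pairs allow. Depth limits Fmo6, which is near the floor of 3 counts.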

Other observations

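Other oxidoreductases and detoxifying enzymes were also read from the tables. Of 13 tested flavin and molybdenum oxidoreductases outside the family 3 were called higher and 1 lower after TMM scaling (median log2 fold change 0.02). Dpyd, the flavin enzyme that starts pyrimidine breakdown, rose to 616 ± 56.6 CPM in the mutants, against 384 ± 9.89 CPM in the controls (SD, n = 3 each, edgeR adjusted p = 0.00366), and was not called in limma on log2(TPM + 1), where its log2 fold change was 0.08. Without control replicate 1 the count of higher genes was 1. With library totals 1 was higher and 8 were lower, where 31.6% of all tested genes were lower. The lower count was 0 without mutant replicate 1, control replicate 2 or control replicate 3, and 2 without mutant replicate 3.

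Of 10 tested epoxide hydrolases and carbonyl reductases 3 were called higher and 1 lower (median 0.09). With library totals 1 was higher and 5 lower, and in limma on log2(TPM + 1) 1 was higher and 7 lower. Over all tested genes 31.6% and 63.6% were lower in these settings. Ephx2, the soluble epoxide hydrolase, rose to 1648 ± 85.5 CPM in the mutants, against 778 ± 58.6 CPM in the controls (SD, n = 3 each, edgeR adjusted p = 5.9e-04), a call that held with library totals, in limma on log2(TPM + 1) and on leaving out each library. The higher count was 1 without mutant replicate 1, mutant replicate 2, control replicate 1 or control replicate 2, and the lower count was 0 without mutant replicate 1, control replicate 1 or control replicate 3.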
